A study of Mus musculus with 6 samples.

Results

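The genes described here encode 9 proteins by which stromal progenitors of bone marrow are recognised and sorted: Lepr, Pdgfra, Vcam1, Ly6a, Thy1, Eng, Nt5e, Itgav and Nes. They were taken as a list of symbols by a rule that uses no measured value, though it was chosen with earlier results of these data known. They make up 9 of the 27179 genes in the count table. The libraries come from marrow stroma of mice at postnatal day 2, on the C57BL/6 strain and of genotype Cxcl12-dsred/+, in which a red fluorescent reporter marks cells that express the chemokine gene Cxcl12. DsRed-positive cells without CD45, Ter119 or CD31 were sorted, and their poly(A) RNA was divided into 3 groups of 2 libraries. The anti-m6A group holds RNA bound by beads with an antibody to N6-methyladenosine (m6A), the IgG group holds RNA bound by beads with IgG, and the Input group holds the 6% of the RNA that was set aside before either pull-down. Genotype, strain, age, tissue and sort are the same in all 6 libraries, so none of the groups is a wild type or an untreated control, and the comparisons are between fractions of RNA. Whether the 2 libraries of a group stem from different mice or different pull-downs is not stated, so each p-value covers only library-to-library spread, part or all of which may be technical.

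Several of these proteins are the handles by which mesenchymal stromal cells are defined. Lepr, the leptin receptor, and Pdgfra, a receptor tyrosine kinase for platelet-derived growth factor, mark stromal cells around marrow vessels that supply haematopoietic stem cells with niche factors, and the pair of Pdgfra with Ly6a (Sca-1) has been used to enrich mouse cells that form fibroblast colonies. Thy1 (CD90), Eng (CD105) and Nt5e (CD73) are the classical antigens of cultured human mesenchymal stromal cells. m6A, the commonest modified base inside mRNA, is written on adenosines within a short consensus whose core is often GGAC, and tends to lie in long internal exons and near the stop codon.

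That core was located in the longest coding transcript of each gene to show what the antibody could have met. The motif searched was GGAC, on the transcript's own strand, in mouse transcripts of GENCODE M21 on GRCm38. All 9 transcripts hold it, as do 98.9% of 20645 coding transcripts, so its presence sets none of them apart. The sites closest to the stop codon are shown for Thy1 and Ly6a, whose anti-m6A level was above that in Input, for Lepr, which was below, and for Vcam1, the most abundant of the genes. Capitals mark the GGAC core, and the sequences run 5′ to 3′.
Thy1: cctccaagccctGGACttcatttctctg
Ly6a: gaggcagcacctGGACcatggcaggggt
Lepr: atttgagtttagGGACctctggtgagaa
Vcam1: agagtgttgcttGGACtgactgttgtaa
The Thy1 site begins 18 bases before the last base of the stop codon, the Ly6a site 61 bases before it and the Lepr site 103 bases before it, each in coding sequence. In Vcam1 the closest match begins 350 bases after the stop codon, in the 3′ untranslated region. The counts are summed per gene and the labels state no fragmentation, so none of these letters is shown to be methylated here.

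Total counts were 6102070 and 5133237 in anti-m6A, 2487148 and 1278735 in IgG and 7125578 and 9493391 in Input. For genes whose pair of libraries held 20 counts or more, the variance between them was on average 9.93 times that of random sampling in anti-m6A, 21.9 times in IgG and 119 times in Input. The medians over these genes were lower, at 1.34 times in anti-m6A, 4.88 times in IgG and 44.3 times in Input. In Input, 548 of the 8128 genes that reached 100 counts in a library (6.74%) had 0 counts in the other, and in each of the 548 the library without counts was replicate 1. The same was seen for 0 of 5839 genes in anti-m6A and for 5 of 1762 in IgG. The sorted cells were described with a list of 10 niche stroma genes. It includes Lepr, Pdgfra and Cxcl12, the gene whose reporter was sorted on, so it is no independent check of cell type. Of these genes, 10 were detected in anti-m6A, 6 in IgG and 10 in Input. Their summed level was 5637 and 5906 CPM in anti-m6A, 4291 and 4167 CPM in IgG, against 9773 and 10230 CPM in Input, where CPM is the normalised count, scaled to the library size after TMM scaling. Of 12 blood markers, 2 were detected in anti-m6A, 3 in IgG and 4 in Input, with a summed level of 66.4 and 82.7 CPM in anti-m6A, 2577 and 1722 CPM in IgG, against 31.5 and 145 CPM in Input. Ptprc, which encodes CD45 and defines this list, was at 0 in all 6 libraries, while Mpo, S100a8 and S100a9 were called higher in IgG than in either other group, and Vpreb1 higher in anti-m6A than in either. Mpo had counts in IgG alone and Vpreb1 in anti-m6A alone. Each passed the filter on low counts through that group only, so it could be tested only if it differed.

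In anti-m6A, 8 of the 9 genes had counts in both libraries, and Nt5e had counts in 1. In IgG, 3 had counts in both libraries (Lepr, Vcam1 and Itgav) and 6 were at 0 in both. In Input, 6 had counts in both libraries, Ly6a and Nt5e had counts in 1, and Thy1 was at 0 in both. A count of 0 in a library from a small eluate does not show that the RNA was absent. As these are bulk libraries, fewer cells of a type and less RNA per cell cannot be told apart.

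**Figure D1:**
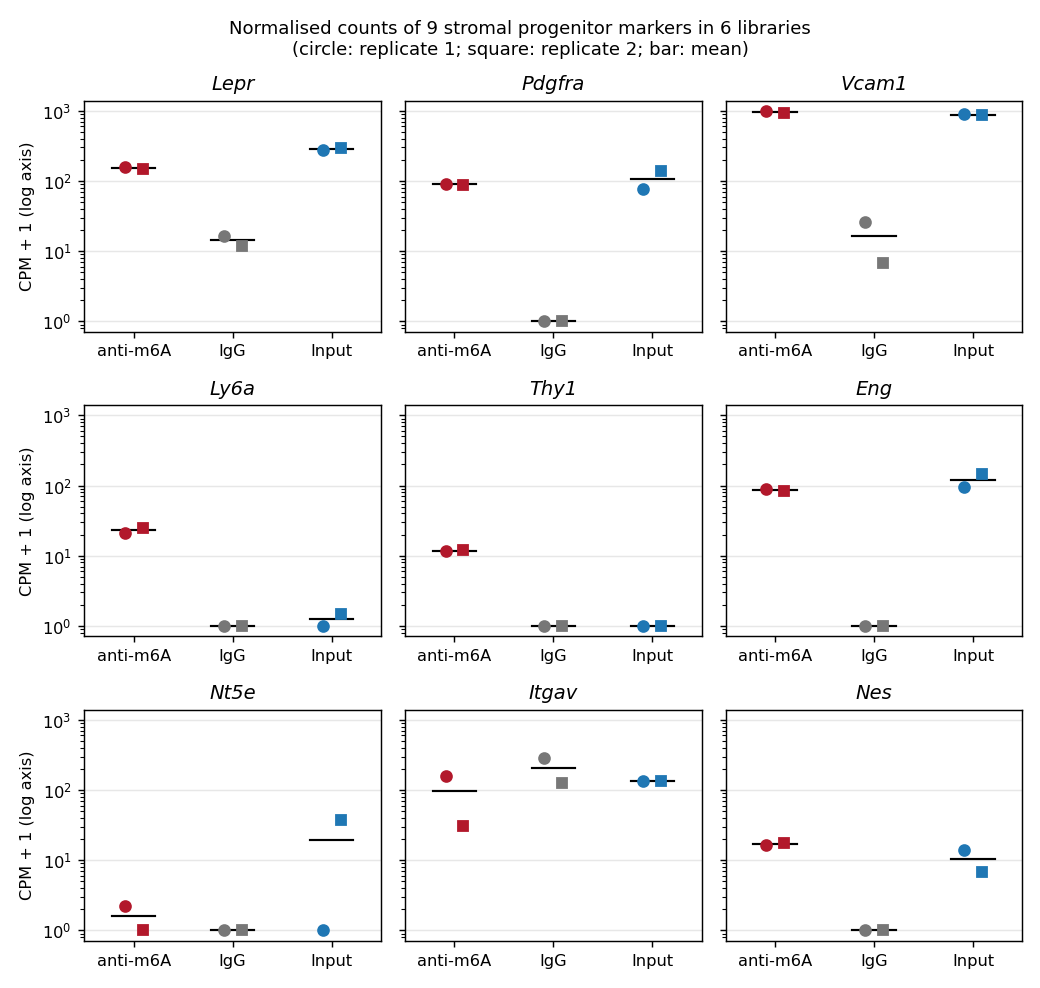
Each panel plots 1 of the 9 genes, with the library group on the horizontal axis and CPM + 1 on a log axis; circles are replicate 1, squares replicate 2 and black bars the mean of 2 libraries. The anti-m6A points of a gene lie close together except for Itgav, at 160.1 and 30.2 CPM, and Nt5e; 6 genes sit at 0 CPM in IgG, and Ly6a and Thy1 stand high in anti-m6A and at or near 0 in Input.

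The comparison of anti-m6A with IgG asks which RNAs were bound by the m6A antibody above the level bound by IgG beads. Of the 9 genes, 8 passed the filter on low counts, and 7 of these were higher in anti-m6A, 0 were lower and Itgav did not pass the test, with an edgeR quasi-likelihood adjusted p of 0.05 as the threshold. No gene of the 8 was lower at an unadjusted p under 0.05 either, by edgeR or by DESeq2 (0 each). Across all 11281 genes tested, 73.1% were higher in anti-m6A and 8.31% lower, so being higher is the usual state of a gene here. Being at 0 in both IgG libraries is likewise common: 8280 of the tested genes (73.4%) were, including 1021 of the 2166 genes with 100 to 1000 CPM in Input (47.1%). The comparison with Input asks which transcripts the antibody took up more or less of than their level in the starting RNA. Here 2 of the 8 were higher in anti-m6A (Ly6a and Thy1), 1 was lower (Lepr) and 5 did not pass the test, beside 28.0% of all genes higher and 20.5% lower. With DESeq2's size factors in place of TMM the split over all genes was 2711 higher and 2982 lower, with library totals 2609 and 3127, and with TMM 3156 and 2308.

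**Figure D2:**
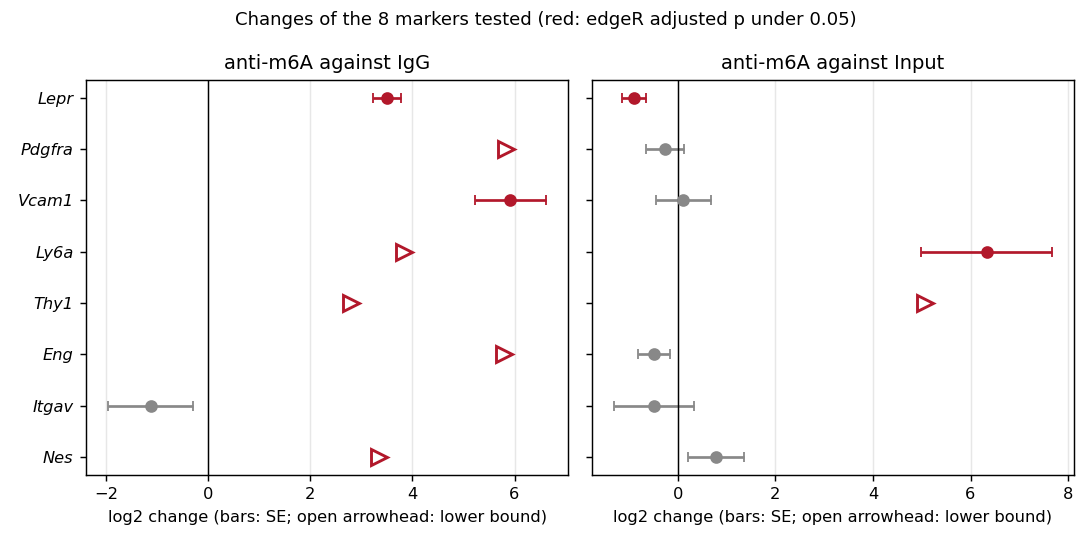
Log2 change of the 8 genes tested, anti-m6A over IgG on the left and anti-m6A over Input on the right; circles are fitted values with SE bars, open arrowheads are lower bounds against a group at 0, and red marks an adjusted p under 0.05. Lepr and Vcam1 lie 3.50 and 5.92 above IgG; against Input, Ly6a and Thy1 lie far to the right and Lepr to the left, while the bars of Pdgfra, Vcam1 and Itgav cross 0.

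Among the receptors, Lepr (GRCm38 chr4:101717137-101815352) is a cytokine receptor that signals through JAK2 and STAT3 when leptin binds. It had 155 and 149 CPM in anti-m6A, 15.5 and 11.0 CPM in IgG, against 273 and 290.4 CPM in Input. No library of a group overlapped with those of another, and anti-m6A lay between IgG and Input. Its log2 change was 3.50 ± 0.28 against IgG (SE; edgeR adjusted p = 0.000609), an 11.3-fold higher level, and -0.89 ± 0.25 against Input (adjusted p = 0.0329), a level 1.86-fold lower. The call against Input was lost on leaving out either anti-m6A library (adjusted p by edgeR = 0.327 without replicate 1 and 0.352 without replicate 2) and when both libraries of each pull-down were summed (adjusted p = 0.378).

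Pdgfra (GRCm38 chr5:75151322-75198206) had 90.9 and 87.2 CPM in anti-m6A, 0 counts in both IgG libraries, and 75.7 and 138 CPM in Input. Both anti-m6A values fell between the 2 Input values. Against IgG it was at least 57.4-fold higher, taking 3 counts per library as the level that a count of 0 could hide (edgeR adjusted p = 0.00089). Against Input its log2 change was -0.27 ± 0.40 (SE; edgeR adjusted p = 0.623), and it was 0.23 without Input replicate 2. Without that library, at 138 CPM, the sign thus turned.

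Eng (GRCm38 chr2:32646595-32682669) encodes endoglin, a coreceptor for ligands of the TGF-beta family that endothelial cells also carry. It had 88.4 and 83.7 CPM in anti-m6A, 0 counts in both IgG libraries, and 95.5 and 144 CPM in Input. Both anti-m6A libraries lay below both Input libraries, yet the log2 change of -0.48 ± 0.33 against Input did not pass the test (SE; edgeR adjusted p = 0.297). DESeq2 called it lower (log2 change -0.91, adjusted p = 0.00461). With DESeq2's size factors, edgeR gave the same -0.91 without a call (edgeR adjusted p = 0.0700). The edgeR log2 change was -0.73 without Input replicate 1 and -0.16 without Input replicate 2. Against IgG, Eng was at least 55.4-fold higher (edgeR adjusted p = 0.000695). Of 10 endothelial markers, 8 had counts in anti-m6A, 0 in IgG and 5 in Input, and their summed level was 103.5 and 113.7 CPM in anti-m6A, 0 in IgG and 68.8 and 91.0 CPM in Input. Their defining genes Pecam1, with 1 and 0 counts, and Cdh5, with 4 and 5 counts, were near 0 in anti-m6A, while in Input Pecam1 had 92 and 69 counts and Cdh5 had 0, and the part of endothelial RNA in the level of Eng was not tested. Eng shares 61 bases at its end with the folate enzyme gene Fpgs, and counts made without strand cannot separate reads there.

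Of the adhesion proteins, Vcam1 had the highest level of the 9 genes in anti-m6A and in Input, and Itgav the highest in IgG. Itgav also had the anti-m6A pair farthest apart of the 8 tested. Vcam1 (GRCm38 chr3:116110020-116129688), which binds the integrin of haematopoietic cells and holds them at the stroma, had 983 and 924 CPM in anti-m6A, 24.8 and 5.83 CPM in IgG, against 887 and 872 CPM in Input. Anti-m6A and Input lay close together and IgG far below. Against IgG its log2 change was 5.92 ± 0.70 (SE; edgeR adjusted p = 0.00129), a 60.5-fold higher level with the 2 IgG libraries 4.24-fold apart, and it was 7.37 without IgG replicate 1 and 5.25 without IgG replicate 2. Against Input it was 0.12 ± 0.56 with TMM (edgeR adjusted p = 0.883), and the sign turned with DESeq2's size factors (-0.33) and with library totals (-0.43). Under these scalings all genes had a median log2 change of -0.22 and -0.32, and with TMM of 0.18, so that Vcam1 lay close to that median under each. These medians take in 1387 tested genes at 0 in both Input libraries. With TMM, over genes with counts in both groups, medians ran from 0.66 in the bin of the shortest genes to -0.68 in that of the longest.

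Itgav (GRCm38 chr2:83722303-83806917) encodes the alpha chain of the vitronectin receptors, integrins that bind matrix proteins through the RGD motif. It had 160.1 and 30.2 CPM in anti-m6A, 289 and 127 CPM in IgG, against 134.1 and 133.7 CPM in Input. The range of each pull-down took in both Input values, and IgG, which left 6 of the 9 genes at 0, gave Itgav its highest value. The anti-m6A libraries differed 5.29-fold, more than for all but 0.376% of 10096 genes, whose median ratio was 1.14. Its log2 change was -1.13 ± 0.83 against IgG (SE; edgeR adjusted p = 0.250) and -0.49 ± 0.82 against Input (adjusted p = 0.658). Without anti-m6A replicate 1 it was called lower than IgG (log2 change -2.78, edgeR adjusted p = 0.0143), and without anti-m6A replicate 2 its log2 change against Input was 0.21. The direction against Input therefore rested on 1 library. Its annotated span also holds the pseudogene Dnmt3l-ps1 over 1102 bases.

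The glycosyl-phosphatidylinositol-anchored proteins Thy1, Ly6a and Nt5e were the 3 genes of the 9 with 0 counts in at least 1 Input library. Thy1 (GRCm38 chr9:44043384-44048579), a small immunoglobulin-like protein of fibroblasts, neurons and T cells, had 51 and 44 counts (10.6 and 11.1 CPM) in anti-m6A and 0 counts in both IgG and both Input libraries. All of its counts therefore lay in the antibody fraction, although the Input libraries were the deeper ones. A level of 0 in both Input libraries was seen for 1387 of the 11281 genes tested, Thy1 among them. More genes had counts in anti-m6A (12714 and 12391) than in Input (10024 and 11186). Thy1 was at least 6.98-fold higher than IgG (edgeR adjusted p = 0.00369) and at least 33.5-fold higher than Input (adjusted p = 0.00716). Both calls were lost on leaving out either anti-m6A library (edgeR adjusted p = 0.0580 and 0.0551 against IgG, 0.101 and 0.0982 against Input) and with pull-down pairs summed (0.0981 and 0.0727). The T cell gene Cd3e, another of the 12 blood markers, and the Schwann cell gene Sox10 were at 0 in all 6 libraries. Of 8 Schwann and neural markers, 1 had counts in anti-m6A (summed level 272 and 262 CPM), 0 in IgG and 2 in Input (111.5 and 53.7 CPM). The part of neural or blood cells in the level of Thy1 was not tested.

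Ly6a (GRCm38 chr15:74994877-74998031), the Sca-1 antigen, had 98 and 96 counts (20.3 and 24.2 CPM) in anti-m6A, 0 counts in both IgG libraries, and 0 and 5 counts (0 and 0.485 CPM) in Input. The lowest anti-m6A library stood far above the higher Input library. Against Input its log2 change was 6.33 ± 1.34 (SE; edgeR adjusted p = 0.0220), and it was at least 14.3-fold higher than IgG (adjusted p = 0.0118). The value against Input rests on the 5 counts of 1 library: it was 5.46 without Input replicate 1, and 9.57 without Input replicate 2, where Input is at 0 and the fitted value is no bound. Leaving out either anti-m6A library ended the call against Input (edgeR adjusted p = 0.116 and 0.128) as did summing pull-down pairs (0.0974), and the call against IgG was lost without IgG replicate 1 (0.0549) and with pairs summed (0.0594). Thy1 and Ly6a passed the filter on low counts through their anti-m6A libraries alone, so genes with their Input levels could be tested only if they differed, and their calls say nothing about the list as a whole. Ly6a belongs to a family of closely similar neighbours on the same chromosome and lies inside the long noncoding gene Gm28068 (3155 bases shared), so its counts are uncertain where reads fit more than 1 gene.

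Nt5e (GRCm38 chr9:88327609-88372089), an enzyme that makes adenosine outside the cell, had 6 and 0 counts in anti-m6A, 0 counts in both IgG libraries, and 0 and 376 counts in Input (0 and 36.5 CPM). Its level in Input rests wholly on replicate 2, and it is among the 548 genes with that pattern. It did not pass the filter and was not tested.

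Nes (GRCm38 chr3:87971093-87980451) encodes nestin, an intermediate filament protein inside the cell rather than on its surface, whose reporter marks perivascular stroma. It had 74 and 65 counts (15.4 and 16.4 CPM) in anti-m6A, 0 counts in both IgG libraries, and 108 and 59 counts (12.8 and 5.72 CPM) in Input. With TMM, both anti-m6A libraries lay above both Input libraries, which were themselves 2.23-fold apart. Against IgG it was at least 10.2-fold higher (edgeR adjusted p = 0.00267). Against Input its log2 change of 0.78 ± 0.57 did not pass the test (SE; edgeR adjusted p = 0.328). That change was 1.48 without Input replicate 1 and 0.30 without Input replicate 2. With DESeq2's size factors it was 0.31, and with library totals 0.21. Of 8 pericyte and smooth muscle markers, 6 were detected in anti-m6A, 1 in IgG and 5 in Input, with a summed level of 227 and 234 CPM in anti-m6A, 17.8 and 9.72 CPM in IgG, against 305 and 432 CPM in Input. Acta2, the smooth muscle actin among them, had 56.8 and 53.45 CPM in anti-m6A, 17.8 and 9.72 CPM in IgG, against 38.6 and 67.6 CPM in Input. Its log2 change against Input was 0.05 ± 0.44 (SE; edgeR adjusted p = 0.933). The part of these cells in the level of Nes was not tested.

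The comparison of IgG with Input shows the background of the beads. Of the 8 genes tested, 5 were lower in IgG, 0 were higher (also 0 at an unadjusted p under 0.05, by edgeR and by DESeq2) and 3 did not pass the test, beside 61.5% of all genes lower and 9.89% higher. The log2 change was -4.40 ± 0.29 for Lepr (SE; edgeR adjusted p = 0.000516) and -5.80 ± 0.70 for Vcam1 (adjusted p = 0.00122), where it was -7.30 without IgG replicate 1 and -5.19 without IgG replicate 2. Taking 3 counts per IgG library as the floor, Pdgfra was at least 69.0-fold lower (edgeR adjusted p = 0.000777), Eng at least 77.3-fold lower (0.000589) and Nes at least 5.96-fold lower (0.00347). For Itgav the log2 change was 0.64 ± 0.82 (SE; edgeR adjusted p = 0.548). Ly6a did not pass the test (edgeR adjusted p = 0.331), and Thy1 was at 0 in both groups. Markers of other cells were unevenly spread over the fractions. Summed over 10 hepatocyte markers, of which 6 had counts in anti-m6A, 10 in IgG and 9 in Input, the level was 1052 and 1065 CPM in anti-m6A, 20510 and 19050 CPM in IgG, against 1440 and 2235 CPM in Input, and albumin itself (Alb) had 374 and 282 counts in anti-m6A, 5744 and 2833 counts in IgG, against 114 and 1655 in Input. The erythroid list, with 7 of its genes measured, of which 7 had counts in anti-m6A, 5 in IgG and 6 in Input, summed to 1052 and 1222 CPM in anti-m6A, 3621 and 3531 CPM in IgG, against 467 and 707 CPM in Input. The part of these cells in the markers' levels was not tested.

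Levels of different genes were compared per kilobase of exon. In anti-m6A, Vcam1 led at 191 CPM per kb, followed by Eng at 24.1, Lepr at 22.9, Ly6a at 22.2, Itgav at 13.5, Pdgfra at 10.2, Thy1 at 5.77, Nes at 2.59 and Nt5e at 0.156 CPM per kb. In this order Lepr and Ly6a, Ly6a and Itgav, and Itgav and Pdgfra overlapped in their 2 libraries, so those neighbours are not separated. Genes farther apart in the order overlapped too. Ly6a (20.3 and 24.1) overlapped with Eng (24.7 and 23.4). Itgav (22.7 and 4.29) overlapped with Lepr and took in both values of Thy1. In IgG, Itgav stood first at 29.5 CPM per kb, with Vcam1 at 3.07 and Lepr at 2.00 CPM per kb overlapping each other. In Input, Vcam1 again led at 176.5 CPM per kb, followed by Lepr at 42.5, Eng at 33.6, Itgav at 19.0, Pdgfra at 12.2, Nt5e at 4.57, Nes at 1.51, Ly6a at 0.242 and Thy1 at 0 CPM per kb. Pdgfra and Nt5e, Nt5e and Nes, and Ly6a and Thy1 overlapped there. Nt5e, at 0 and 9.13 CPM per kb in its 2 Input libraries, also took in the values of Ly6a and Thy1. Ly6a thus had a per-length level near that of Lepr and Eng in anti-m6A and lay below both in Input.

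The change against Input went with exon length, which was divided into 4 bins of about equal gene number over the 10324 tested genes with a coding transcript. Ly6a, with 1004 bases of exon, and Thy1, with 1878, fell in the bin of the shortest genes. In that bin the median log2 change of anti-m6A over Input was 0.66 for the 2227 genes with counts in both groups. Of all 2581 genes in the bin, those at 0 in a group included, 38.1% were called higher and 9.65% lower. Medians and shares of the other bins were taken in the same way. Lepr (6635 bases), Pdgfra (8767), Vcam1 (4983), Itgav (7054) and Nes (6126) fell in the bin of the longest genes, where the median was -0.68, with 18.9% called higher and 28.6% lower. Eng (3572) and Nt5e (3995) lay in the third bin, with a median of -0.37. Of the 5 genes in the longest bin, Lepr had a log2 change of -0.89, below that median, while Itgav at -0.49, Pdgfra at -0.27, Vcam1 at 0.12 and Nes at 0.78 lay above it. The part of length in the markers' changes was not tested.

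**Figure D3:**
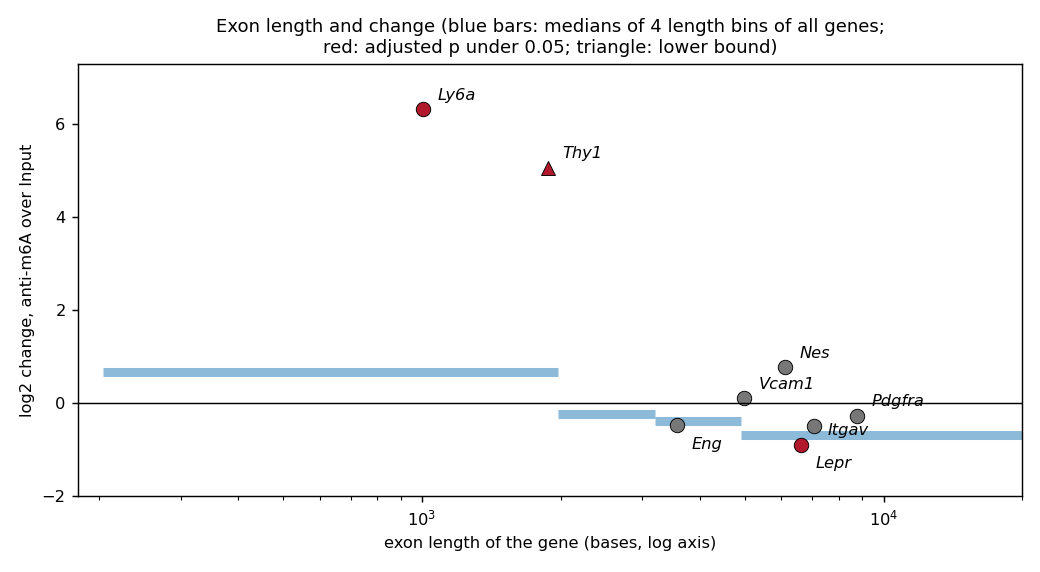
Log2 change of anti-m6A over Input on the vertical axis against exon length in bases on a log axis, for the 8 genes tested; blue bars are medians of 4 length bins of the tested genes with a coding transcript, over those with counts in both groups, the triangle is a lower bound, the last bar runs on past the axis and red marks an adjusted p under 0.05. Bin medians run from 0.66 in the shortest genes to -0.68 in the longest; Ly6a lies far above the bar of its bin, and Thy1, at 0 in Input, is not among the genes behind that bar.

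For the density of the GGAC core the bins lay closer together. Over 4 bins of increasing density, the median log2 change of anti-m6A over Input was -0.18, -0.17, -0.26 and 0.13. Nes had 6.04 cores per kb, Eng 5.55, Nt5e 4.76, Pdgfra 4.68, Itgav 4.68, Lepr 4.12, Thy1 3.46, Ly6a 3.14 and Vcam1 2.31, beside a median of 4.23 in the tested genes' transcripts. Thy1 and Ly6a, the shortest genes, were therefore below that median with 6 and 3 cores in all. Within 200 bases of the stop codon, Pdgfra had 5, Nes 3, Thy1 2 and Lepr, Ly6a and Itgav 1 each, while Vcam1, Eng and Nt5e had 0. That is 6 of 9 transcripts (66.7%), beside 80.7% of the tested genes' transcripts.

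Other surface antigens used to sort stromal progenitors were followed in a list of 26 genes, of which 23 had counts and 19 were tested. Of these, 15 had a higher and 2 a lower level in anti-m6A than in IgG, and 2 did not pass the test. Of all genes tested, 73.1% were higher and 8.31% lower than IgG. Against Input, the median log2 change was -0.83, beside -0.08 for the 8 progenitor markers and 0.18 for all genes. The -0.08 includes Ly6a and Thy1, which passed the filter on low counts through their anti-m6A libraries alone. The 0.18 takes in 1387 tested genes at 0 in both Input libraries. The other progenitor markers ran from -0.89 (Lepr) to 0.78 (Nes), and the difference between the lists was not tested. Of the other antigens tested, 1 was higher than Input, 5 were lower and 13 did not pass, beside 28.0% of all genes higher and 20.5% lower. With DESeq2's size factors 1 was higher and 9 were lower, and without either anti-m6A library 1 was higher and 0 were lower. The gene that was higher was Cd63, a tetraspanin of late endosomes and exosomes, with 4901 and 5429 CPM in anti-m6A, 1696 and 1690 CPM in IgG, against 2038 and 2483 CPM in Input (log2 change 1.19 ± 0.15 against Input, SE; edgeR adjusted p = 0.00716). With TMM the 5 lower genes were Anpep, Cd151, Cdh2, Cdh11 and Cd81. Anpep, the CD13 aminopeptidase, had 1.45 and 2.27 CPM in anti-m6A, 0 in both IgG libraries, and 40.5 and 20.9 CPM in Input, with -4.03 ± 0.65 as its log2 change against Input (SE; edgeR adjusted p = 0.0113). Cd9, another tetraspanin, was lower in anti-m6A than in IgG, with 344 and 266 CPM in anti-m6A, 1075 and 1102 CPM in IgG, against 234 and 533 CPM in Input (log2 change over IgG -1.84 ± 0.42, SE; edgeR adjusted p = 0.0100). Cdh2 (N-cadherin) had 45.4 and 42.1 CPM in anti-m6A, 0 in both IgG libraries, and 106.4 and 80.6 CPM in Input, and the tetraspanin Cd151 had 13.5 and 14.1 CPM in anti-m6A, 0 in both IgG libraries, and 37.3 and 84.7 CPM in Input. Fap, a fibroblast surface protease, had 110.5 and 108.9 CPM in anti-m6A, 10.8 and 4.54 CPM in IgG, against 202 and 531 CPM in Input.

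**Figure D4:**
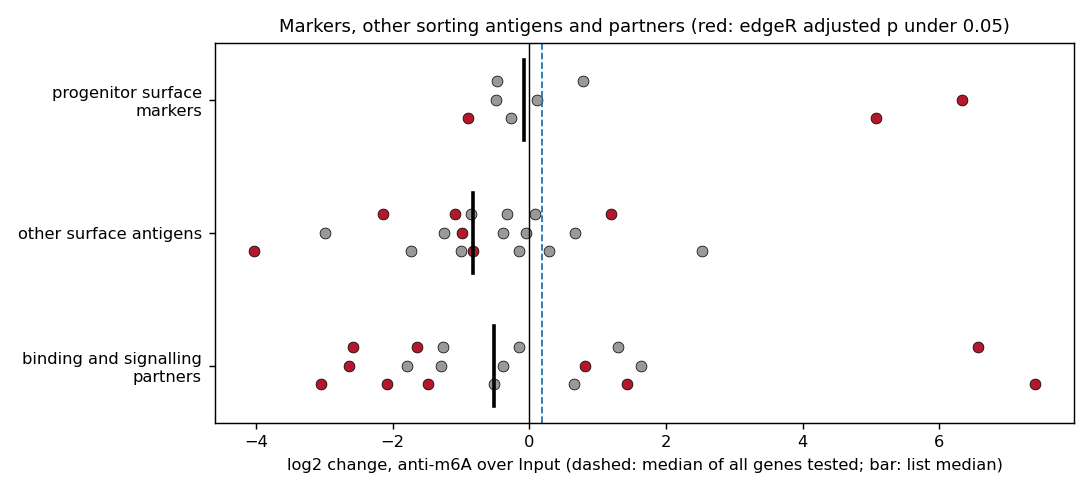
Log2 change of anti-m6A over Input on the horizontal axis for each tested gene of 3 lists; red marks an edgeR adjusted p under 0.05, black bars are list medians, the dashed line is the median of all genes, 0.18, and Thy1 is drawn at its lower bound. With TMM, list medians are -0.08 for the progenitor markers, -0.83 for the other surface antigens and -0.52 for the binding and signalling partners. The first of these includes Ly6a and Thy1, which passed the filter on low counts through anti-m6A alone. The median of all genes takes in 1387 tested genes at 0 in both Input libraries.

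The second list held 29 genes that bind the markers' proteins or carry their signal, of which 22 had counts and 19 were tested. Against IgG, 14 were higher in anti-m6A, 3 were lower and 2 did not pass the test, beside 73.1% of all genes higher and 8.31% lower. Against Input, 4 were higher (Pdgfd, Des, Pdgfa and Jak2), 6 were lower (Socs3, Tgfbr2, Pdgfc, Acvrl1, Tgfbr3 and Stat3) and 9 did not pass, with a median log2 change of -0.52. Of all genes tested, 28.0% were higher and 20.5% lower than Input. With DESeq2's size factors 2 were higher and 9 lower. Without either anti-m6A library edgeR called 0, while 5 genes had an unadjusted p under 0.05 in each case, and DESeq2 on all 6 libraries called 15. Pdgfa and Pdgfc encode ligands of Pdgfra. Pdgfa had 155 and 207 CPM in anti-m6A, 0 in both IgG libraries, and 56.8 and 77.3 CPM in Input, with 1.43 ± 0.33 as its log2 change against Input (SE; edgeR adjusted p = 0.0280, and 0.0592 with DESeq2's size factors). Pdgfc had 11 and 3 counts in anti-m6A, 0 in IgG, and 95 and 76 counts in Input (log2 change -2.58 ± 0.69, SE; edgeR adjusted p = 0.0416). The Pdgfc call was lost without a count filter (0.0585), without either IgG library (0.0572 and 0.0574), on leaving out either library of anti-m6A (0.322 and 0.551) and with pull-down pairs summed (0.458). Pdgfrb, the sister receptor and a member of both lists, had 451 and 491 CPM in anti-m6A, 30.6 and 8.43 CPM in IgG, against 437 and 608 CPM in Input, and its log2 change over IgG was 4.56 ± 0.65 (SE; edgeR adjusted p = 0.00214), with 5.82 without IgG replicate 1 and 3.93 without IgG replicate 2.

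Of the leptin receptor's pathway, Jak2 and Socs3 had lower levels in anti-m6A than in IgG, and Stat3 a higher one. Stat3, the transcription factor that the receptor activates, named here after its values were seen, had 62.6 and 72.6 CPM in anti-m6A, 0 in both IgG libraries, and 147 and 233 CPM in Input. It was at least 43.6-fold higher than IgG (edgeR adjusted p = 0.000777) and its log2 change against Input was -1.49 ± 0.35 (SE; adjusted p = 0.0297). Jak2, the kinase bound to Lepr, had 8.09 and 10.1 CPM in anti-m6A, 850.2 and 754 CPM in IgG, against 5.92 and 4.36 CPM in Input. With its high value in IgG, the log2 change of anti-m6A over IgG was -6.46 ± 0.31 (SE; edgeR adjusted p = 0.000548), and that over Input was 0.82 ± 0.26 (adjusted p = 0.0494). Socs3, a feedback inhibitor of the receptor, had 13.9 and 11.3 CPM in anti-m6A, 121 and 60.3 CPM in IgG, against 127 and 83.4 CPM in Input, and its log2 change was -2.84 ± 0.47 against IgG (SE; edgeR adjusted p = 0.00339, and -2.23 without IgG replicate 1) and -3.05 ± 0.47 against Input (adjusted p = 0.00723). Tgfbr2, which signals beside endoglin, had 17.8 and 29.5 CPM in anti-m6A, 13.1 and 9.07 CPM in IgG, against 93.1 and 202 CPM in Input (log2 change -2.64 ± 0.53 against Input, SE; edgeR adjusted p = 0.0130, and -1.99 without Input replicate 2). Itgb1, the integrin beta chain that can pair with Itgav, had 251 and 218 CPM in anti-m6A, 673 and 570.4 CPM in IgG, against 334 and 279 CPM in Input. It was lower in anti-m6A than in IgG (log2 change -1.41 ± 0.21, SE; edgeR adjusted p = 0.00243) and both IgG values were above those of the other groups, whereas for Itgav 1 of the 2 was. Des, the desmin filament gene, had 70 and 43 counts in anti-m6A, 0 in IgG and 2 and 0 counts in Input. The growth factor gene Pdgfd had 55 and 60 counts (11.4 and 15.1 CPM) in anti-m6A, 51 and 23 counts (19.7 and 14.9 CPM) in IgG, against 1 and 0 counts in Input. Pdgfd was thus not called above IgG (log2 change -0.39 ± 0.67, SE; edgeR adjusted p = 0.612). Like Thy1 and Ly6a, Des and Pdgfd could be tested only because of their pull-down counts.

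The 2 genes closest to each marker in log2(CPM + 1) over the 6 libraries were found by Euclidean distance among the genes tested. Those closest to Lepr were Mest (0.722) and Tex264 (0.952), and those closest to Pdgfra were Irf1 (0.265) and Sltm (0.268). Eng had Cetn2 (0.249) and Rab6a (0.257), Nes had Zbtb2 (0.241) and Abl1 (0.247), and Ly6a had Rtn4ip1 (0.199) and A430033K04Rik (0.223). Thy1 was closest to Iqgap3 and Ly6c1, each at 0.0605. For Vcam1 and Itgav the distances were larger, with Psmc3 at 1.31 and Chmp2a at 1.43 from Vcam1, and Yme1l1 at 1.54 and ATP6 at 1.62 from Itgav. Genes at 0 in several libraries lie close together by construction of this distance.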

How the data were processed

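The authors deposited raw counts per gene for the 6 libraries, listed by Entrez number. Per the labels' protocols, poly(A) RNA was pulled down and libraries were made by Smart-seq2, which amplifies RNA without molecular identifiers or strand. Per the submitters' processing notes, Picard, featureCounts, edgeR 3.38.1 and mm10 were used, with the aligner and annotation not given in the sources used here. Of 27179 genes, 25275 were given symbols from RefSeq's GRCm38.p6 gene table, the 9 members among them. Unbound fractions were not analysed here.

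The count test was edgeR 4.0.16 (limma 3.58.1) under R 4.3.3. Genes were filtered by filterByExpr (minimum count 10, minimum total 15), which left 11281, and scaled by TMM. A quasi-likelihood fit of 3 group means over all 6 libraries, with 3 residual degrees of freedom, gave 3 contrasts, with Benjamini-Hochberg adjustment over all genes tested and a threshold of 0.05. The groups share 1 estimate of spread, although the pairs vary unequally. The SE is the log2 change divided by the square root of F. Against a group at 0, bounds use 3 counts per library, and cover counting error only: 0.622 and 0.756 CPM in anti-m6A, 1.16 and 1.94 CPM in IgG, 0.355 and 0.291 CPM in Input. The fit was run on simulated data with equal spread in all libraries, so that run does not cover the unequal spread here.

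Exon lengths, GGAC sites and stop codons come from GENCODE M21 basic transcripts, and gene coordinates from RefSeq. From the lists of other antigens and partners, the genes named were up to 3 higher and 3 lower by change in each anti-m6A comparison, with genes at 0 in a group ranked last, and 2 nearest genes per marker. The members, lists and rules were chosen with earlier results of these data known. Alternatives were other scalings, filters, libraries, a replicate block and the DESeq2 1.42.0 Wald test.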

Additional observations from a re-analysis of the deposited data

How the results depend on the processing

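Against IgG, 7 members were called, and 6 to 7 with 1 library left out; the filter of at least 10 counts in each library left 2 members to test and 1 call. Against Input, 3 were called, 1 with that filter, 4 with the DESeq2 Wald test, 0 with pull-down pairs summed (2 at an unadjusted p under 0.05) and 0 to 6 with 1 library left out (0 without either anti-m6A library, with 3 and 2 at an unadjusted p under 0.05 by edgeR, and 6 without Input replicate 1). For IgG against Input, 5 were called, 1 with that filter and 5 to 6 with 1 library left out.

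Over all genes, 9187 were called for anti-m6A against IgG, 1179 with at least 10 counts in each library (593 higher and 586 lower), 6058 with pairs summed and 7239 to 10265 with 1 library left out. Against Input 5464 were called, 928 with that filter, 6701 with the DESeq2 Wald test, 885 with pairs summed and 442 to 8691 with 1 library left out (442 without anti-m6A replicate 1, 8691 without Input replicate 1). For IgG against Input the counts were 8057, 1051 and 7217 to 9188.

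Of the other surface antigens, 17 were called against IgG, 7 with that filter, 12 with pairs summed and 14 to 18 with 1 library left out. Against Input 6 were called (1 higher and 5 lower), 6 without a count filter (2 and 4), 4 with that filter, 10 with DESeq2's size factors and with library totals, 11 with the DESeq2 Wald test, 2 with the replicate block, 6 with only the groups compared (2 and 4), 1 with pairs summed and 1 to 13 with 1 library left out. Of the partners, 17 were called against IgG, 6 with that filter and 15 to 19 with 1 library left out. Against Input 10 were called, 4 with that filter, 11 with DESeq2's size factors, 12 with library totals, 15 with the DESeq2 Wald test, 4 with the replicate block, 0 with pairs summed (6 at an unadjusted p under 0.05) and 0 to 15 with 1 library left out.

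The labels do not state whether libraries of the same replicate number share RNA, and the main fit treats them as unpaired. Deviations from group means correlated at 0.0997 between anti-m6A and IgG, 0.0859 between anti-m6A and Input and 0.0415 between IgG and Input. These values do not settle whether the libraries are paired. With the replicate block, 2 members and 3364 genes were called against Input, and Lepr was not (edgeR adjusted p = 0.0757).

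Signs turned, without a call on either side, for Pdgfra against Input without Input replicate 2 (0.23, and -0.62 without replicate 1), for Vcam1 against Input with DESeq2's size factors (-0.33), library totals (-0.43) and the DESeq2 Wald test (-0.33), for Itgav against Input without anti-m6A replicate 2 (0.21, and -2.13 without replicate 1), and for Itgav in IgG against Input with at least 10 counts in each library (-0.31) and without IgG replicate 1 (-0.14, and 1.07 without replicate 2). The cause was not tested. With 1 library left in a group, that library is assumed to vary like the other groups. Of the log2 changes of the members under all alternatives, 278 kept direction and side of the threshold, 15 lost the call, 4 gained it and 7 turned sign. Of those of the other named genes, 219 kept both and 38 lost the call. Depth limits IgG most: a gene under about 1.94 CPM in its shallower library could be at 0 by counting alone.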
